A study of Mus musculus with 7 samples.

Results

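The mouse Zfp symbols name genes that were recognised by a zinc finger, a short protein fold held together by a zinc ion. Members were taken as the array probes whose platform symbol is Zfp followed by a digit and whose signal was above background (detection p under 0.01) on at least 2 arrays. This rule found 162 of the platform's 380 Zfp probes, and these probes report 131 of its 280 Zfp genes. The 42.6% of Zfp probes kept compares with 42.2% of all named probes kept by the same background rule. The other Zfp genes were too dim to be measured in these cells and carry no result here.

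Expression was measured on Illumina MouseRef-8 bead arrays in cells sorted from the spleens of C57Bl/6J mice, labelled female and 10 weeks of age. The 3 populations were 2 samples of plasma cells (B220low CD138+) and 3 samples of plasmablasts (B220mid CD138+), taken on day 3 after lipopolysaccharide (LPS), and 2 samples of resting B cells (B220+ CD43-) from naive mice. LPS is a bacterial cell wall component that drives B cells to divide and to become antibody-secreting cells. B220 is lost and CD138, the product of Sdc1, is gained along that path. The replicates are not said to come from separate animals, so the p-values measure the spread between these samples alone. The methylation sequencing of the same populations was not analysed here.

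Most Zfp proteins carry C2H2 fingers in tandem, each of which contacts a few bases of DNA. Many of these also carry a KRAB domain, which recruits the scaffold protein Trim28 and, through it, histone methylation and silencing, often of retroelements. Others lack KRAB and act at gene promoters, in splicing, at ribosomes or as ubiquitin or SUMO ligases. A small CCCH group, Zfp36 and its relatives, binds AU-rich elements in mRNA and brings in the CCR4-NOT deadenylase, which shortens the poly(A) tail and so starts decay. In B cells the best known member is Zfp318, which is needed in mouse for the long transcript that gives IgD on mature B cells.

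The arrays measured between 8817 and 9930 of 25697 probes above background, and arrays of one population correlated across genes with a Pearson's r of 0.994 or more, against 0.828 or less between populations. The B cell markers fell in every comparison (10 of 10 measured). Sdc1 was above background on every plasma cell and plasmablast array and on neither naive array. Of 11 measured markers of antibody-secreting cells, 10 were higher in plasma cells and 11 in plasmablasts than in naive B cells, and 0 were higher and 7 lower in plasma cells than in plasmablasts (median -1.01 units). Their summed linear signal was 58790 to 62670 on the plasma cell arrays, 94470 to 96060 on the plasmablast arrays and 8636 to 8661 on the naive arrays, and the part of this in the Zfp differences was not tested. 1 label went against the data. All samples are labelled female, yet the Y-linked genes Eif2s3y and Kdm5d were above background on 0 of 5 LPS arrays and on both naive arrays, where Eif2s3y reached 11.49 and 11.20 normalized log2 units. The Y-linked Uty was above background on all 7 arrays, at 6.29 to 7.16 units on the LPS arrays and 7.37 and 7.13 on the naive arrays. Both Xist probes were above background on all 5 LPS arrays and on 0 of 2 naive arrays. In the 2 comparisons with naive B cells, sex and population therefore cannot be told apart. The plasma cell to plasmablast comparison holds no naive array. Only 2 member genes are X-linked, Zfp275 and Zfp280c.

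Markers of other cells also moved between the populations. Of 15 measured myeloid markers, 13 were higher and 0 lower in plasma cells than in plasmablasts, and 8 of 11 measured were higher without the first plasma cell array. Their summed linear signal was 61020 to 62880 on the plasma cell arrays, 2632 to 6771 on the plasmablast arrays and 31370 to 36810 on the naive B cell arrays. On the plasma cell arrays only Vcam1 of these markers stayed below background, whereas 11 did so on the plasmablast arrays, Cd14 and Adgre1 among them, and 5 on the naive arrays. The 7 measured T and NK cell markers summed to 4026 to 4161 on the plasma cell arrays, 1144 to 1812 on the plasmablast arrays and 392 to 432 on the naive arrays. The 8 measured erythroid and platelet markers summed to 365 to 401 on the plasma cell arrays, 297 to 313 on the plasmablast arrays and 24270 to 32870 on the naive arrays. The part of these markers' cells in the Zfp differences was not tested. In sorted bulk samples, fewer cells of a type and less RNA per cell cannot be told apart.

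Signals are given as normalized log2 units per array, and a difference of 1 unit is a 2-fold change. Calls rest on limma, with p-values adjusted by Benjamini-Hochberg over all 7425 genes tested and a threshold of 0.05. Where every array of the lower population was below background, the fold is given as at least the value reached against the background limit of those arrays. The median standard deviation of a Zfp gene was 0.105 units between the 2 plasma cell arrays, 0.129 between the 3 plasmablast arrays and 0.0885 between the 2 naive arrays. These spreads are small beside many of the differences described below. Levels of different genes are not set against each other, because each probe has its own brightness.

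Zfp transcripts were mostly lowest in plasma cells and highest in resting B cells. The plasma cell mean was the highest of the 3 populations for 12 of 131 genes (9.16%), the plasmablast mean for 37 (28.2%) and the naive B cell mean for 82 (62.6%). Over all genes tested the same shares were 23.8% for plasma cells, 39.7% for plasmablasts and 36.5% for naive B cells. The plasma cell mean was the lowest for 91 Zfp genes (69.5%, against 38.8% of all genes). The commonest order ran from naive B cell through plasmablast down to plasma cell and was taken by 67 Zfp genes (51.1%, against 21.4% of all genes). In a further 24 genes (18.3%, against 17.4% of all genes) the plasmablast mean was highest and the plasma cell mean lowest. Among the 100 Zfp genes above background on every array, where each mean is measured, the naive B cell mean was highest for 63 and the plasma cell mean lowest for 70, beside 38.4% and 42.9% of all such genes.

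**Figure D1:**
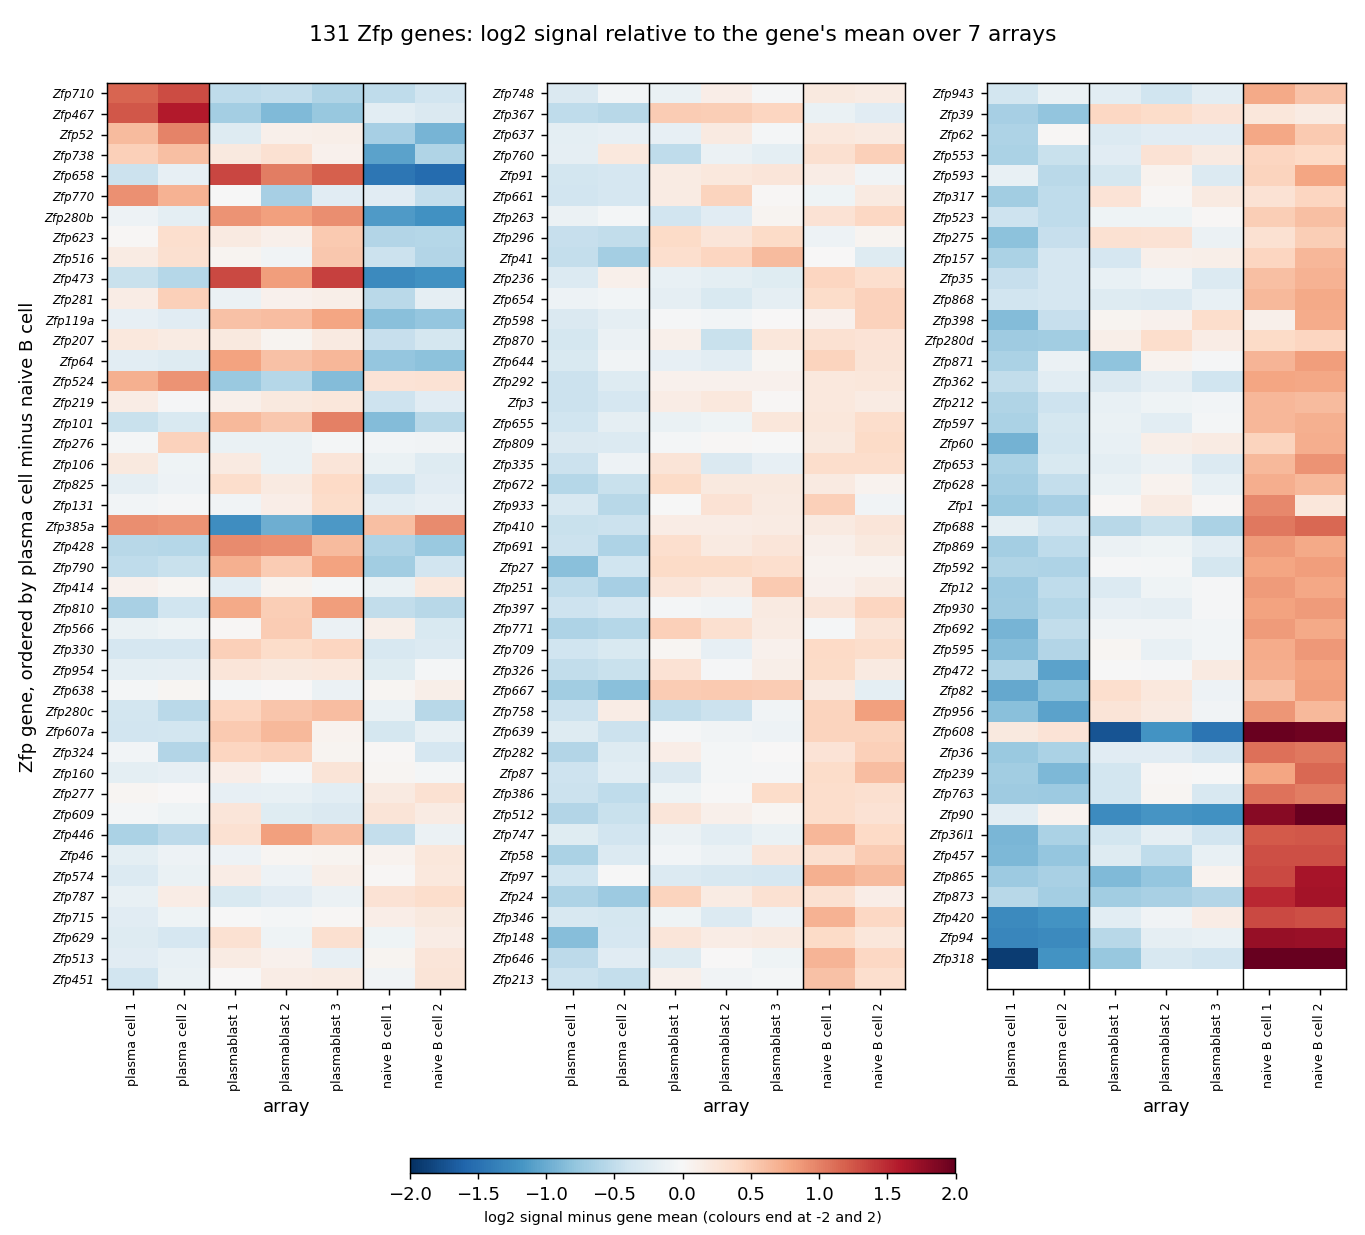
Normalized log2 signal of the 131 measured Zfp genes on each of 7 arrays, as the difference from the gene's own mean over the arrays (blue lower, red higher), with genes ordered from top left to bottom right by the difference of plasma cells from naive B cells. Plasma cell columns stand left, plasmablast columns in the middle and naive B cell columns right in each panel. The naive columns are red and the plasma cell columns blue for most genes, and the first few rows, from Zfp710 on, show the reverse.

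Between plasma cells and naive B cells, limma called 106 of 131 Zfp genes (80.9%), beside 71.1% of all genes tested. Of these, 16 rose (12.2%, beside 33.3% of all genes called higher) and 90 fell (68.7%, beside 37.8% called lower). The rises include Zfp473, for which no array of either population was above background, so its rise is not measured. The median Zfp difference was -0.65 log2 units and the median over all genes was -0.08. With bounds in place of folds where the lower population was below background, falls of 2-fold or more numbered 33 and such rises 6, beside 13.1% and 14.1% of all genes. In all 106 called genes the arrays of the 2 populations did not overlap, and 71.1% of all genes were called without overlap. With cyclic loess, another normalization between arrays, 21 rose and 72 fell, and the median of all genes was 0.09 units.

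The measured set depends on the background rule, since a gene above background in one population alone had to differ. There were 8 such genes. Zfp239, Zfp457, Zfp646, Zfp763, Zfp865 and Zfp873 met the rule through the naive arrays and Zfp446 and Zfp473 through the plasmablast arrays. Among the 100 Zfp genes above background on all 7 arrays, 10 rose and 71 fell in plasma cells against naive B cells, with a median of -0.62 units. The same genes across the array, 5549 in all, had 70.3% called, 29.1% higher and 41.2% lower, with a median of -0.14 units.

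Plasmablasts against naive B cells gave fewer falls. Of the 131 genes, 88 were called (67.2%, beside 73.1% of all genes), 27 higher (20.6%, beside 35.3%) and 61 lower (46.6%, beside 37.8%). Falls of 2-fold or more, bounds counted in the same way, numbered 12 and such rises 9, beside 14.3% and 13.5% of all genes. The called genes did not overlap between the populations in 88 of 88 cases, and 72.9% of all genes were called without overlap. The median difference was -0.28 units for Zfp genes and -0.02 for all genes. Of the 100 genes above background everywhere, 62 were called, 19 higher and 43 lower, beside 73.7%, 36.8% and 36.9% of all such genes.

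Between plasma cells and plasmablasts, 85 genes were called (64.9%, beside 74.7% of all genes), 9 higher (6.87%, beside 28.7%) and 76 lower (58.0%, beside 46.0%). None of the 85 overlapped between the populations, and 74.5% of all genes were called without overlap. The genes called lower include Zfp239, Zfp457 and Zfp763, for which no array of either population was above background, so their falls are not measured. Falls of 2-fold or more numbered 14 and such rises 5, beside 11.3% and 13.0% of all genes. The whole array leaned the same way here, with a median of -0.22 units over all genes against -0.42 units over the Zfp genes, a gap of -0.20. Of the 100 genes above background everywhere, 63 were called, 5 higher and 58 lower, beside 74.8%, 24.4% and 50.3% of all such genes. Cyclic loess scaling moved the median of all genes to -0.01 and the Zfp median to -0.15, and then 22 Zfp genes rose and 48 fell (68.6% of the called genes lower, against 89.4% with quantile normalization). Without the first plasma cell array, 14 genes rose in place of 9.

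**Figure D2:**
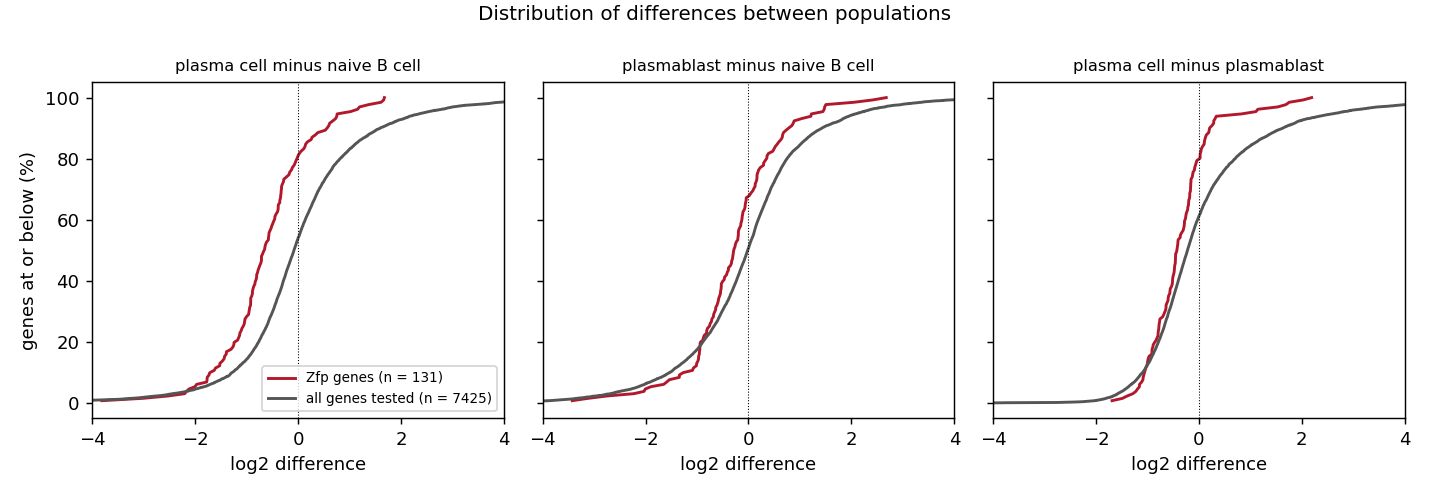
Cumulative share of genes (vertical axis, %) at or below each log2 difference (horizontal axis, cut at -4 and 4) for the 131 Zfp genes (red) and all 7425 genes tested (grey), in the 3 comparisons. The red curve lies left of the grey one over most of its course in each panel, and the gap between medians is widest for plasma cells minus naive B cells (-0.65 against -0.08).

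The deepest falls in both antibody-secreting populations involved genes that were well measured in naive B cells. Zfp318 is the gene needed for the long transcript that gives IgD. It gave 7.07 and 7.77 units in plasma cells, 8.20, 8.64 and 8.58 in plasmablasts and 11.23 and 11.22 in naive B cells. The 3 populations did not overlap, and naive B cells stood far above the others. Zfp318 fell 14.0-fold in plasma cells against naive B cells (-3.81 log2 units, 95% interval -4.34 to -3.28, limma adjusted p = 2.5e-06). It fell 6.75-fold in plasmablasts against naive B cells (-2.75, -3.24 to -2.27, adjusted p = 7.25e-06), and plasma cells lay 1.06 units below plasmablasts (adjusted p = 0.0021).

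Zfp608, reported in mouse thymocytes as a repressor of the recombinase genes Rag1 and Rag2, had another order. It gave 8.99 and 9.07 units in plasma cells, 7.07, 7.61 and 7.33 in plasmablasts and 10.78 and 10.74 in naive B cells. Plasmablasts were the lowest, with no overlap between any 2 populations. Against naive B cells Zfp608 fell 10.7-fold in plasmablasts (-3.42 units, interval -3.76 to -3.08, adjusted p = 3.36e-07) and 3.32-fold in plasma cells (-1.73 units, adjusted p = 2.83e-05). Plasma cells exceeded plasmablasts 3.23-fold (1.69 units, adjusted p = 2e-05).

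Zfp90 showed the same order as Zfp608. It measured 6.78 and 7.07 units in plasma cells, 5.74, 5.81 and 5.78 in plasmablasts and 8.82 and 8.97 in naive B cells. The plasmablast arrays were all below background for Zfp90, so its fall against naive B cells was at least 4.67-fold (adjusted p = 1.38e-07). Plasma cells were 3.92-fold below naive B cells (-1.97 units, adjusted p = 2.39e-06) and at least 1.19-fold above plasmablasts (adjusted p = 3.12e-05).

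Zfp94 and Zfp420 went stepwise down instead. Zfp94 gave 5.87 and 5.91 units in plasma cells, 6.63, 7.0 and 7.04 in plasmablasts and 8.92 and 8.91 in naive B cells, with neither plasma cell array above background. Its fall was at least 6.22-fold in plasma cells (adjusted p = 6.44e-07) and 4.08-fold in plasmablasts (adjusted p = 2.57e-06), both against naive B cells. Zfp420, whose human counterpart ZNF420 restrains p53-driven cell death, fell at least 3.92-fold in plasma cells and 2.54-fold in plasmablasts against naive B cells (adjusted p = 8.86e-07 and 1.44e-05). Its arrays read 5.68 and 5.75 units in plasma cells, 6.74, 6.88 and 7.10 in plasmablasts and 8.27 and 8.23 in naive B cells. In plasmablasts 2 of 3 arrays were above background for each of these genes.

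Another 3 of the deep falls were seen above background in naive B cells alone. Zfp873 read 5.38 and 5.26 units in plasma cells, 5.25, 5.29 and 5.35 in plasmablasts and 7.45 and 7.60 in naive B cells, at least 2.37-fold and 1.81-fold lower in plasma cells and plasmablasts than in naive B cells (adjusted p = 5.48e-07 and 2.7e-07). Zfp865 was at least 2.85-fold and 2.17-fold lower in the same comparisons (adjusted p = 0.000247 and 0.000201), and Zfp457 at least 2.34-fold and 1.78-fold lower (adjusted p = 2.64e-06 and 6.28e-06). These are bounds set by the background limit, since neither LPS population gave a signal above it. All 3 genes met the background rule through the naive arrays alone, so these falls had to appear and their p-values add no evidence for them. Zfp873 did not pass the test between plasma cells and plasmablasts (0.02 units, adjusted p = 0.813), and under scaling to the 75th percentile it was -0.32 units (adjusted p = 0.019).

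The 6 largest fitted rises in plasmablasts over naive B cells were those of Zfp658, Zfp473, Zfp280b, Zfp428, Zfp64 and Zfp119a, and the place of Zfp473 among them is not measured, since no naive array was above background for it. The 250 bases before the start of transcription of the first 3 genes are printed here because each holds a CCAAT box, the motif bound by NF-Y, in the window shown. For Zfp473 the start site with the box was chosen, and the windows of its other start sites hold no CCAAT. The box was in 50% of all Zfp windows and 36.0% of windows of genes tested, so it does not set these genes apart. The windows are from RefSeq on GRCm38.p6, at chr7:43562120-43562369 (+ strand) for Zfp658, chr7:44748350-44748599 (- strand, 1 of 3 start sites) for Zfp473 and chr10:76032362-76032611 (+ strand) for Zfp280b. They run 5′ to 3′ with CCAAT on either strand and, in Zfp473, TGACGTCA in capitals.
Zfp658: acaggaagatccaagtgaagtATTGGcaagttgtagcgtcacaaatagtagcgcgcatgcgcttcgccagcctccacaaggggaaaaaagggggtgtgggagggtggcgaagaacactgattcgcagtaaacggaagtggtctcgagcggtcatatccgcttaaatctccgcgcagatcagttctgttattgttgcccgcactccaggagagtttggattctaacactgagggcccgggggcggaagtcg
Zfp473: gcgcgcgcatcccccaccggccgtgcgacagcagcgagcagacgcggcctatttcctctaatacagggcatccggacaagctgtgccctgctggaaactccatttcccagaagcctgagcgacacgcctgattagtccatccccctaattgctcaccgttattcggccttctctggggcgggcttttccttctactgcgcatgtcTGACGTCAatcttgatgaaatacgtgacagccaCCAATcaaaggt
Zfp280b: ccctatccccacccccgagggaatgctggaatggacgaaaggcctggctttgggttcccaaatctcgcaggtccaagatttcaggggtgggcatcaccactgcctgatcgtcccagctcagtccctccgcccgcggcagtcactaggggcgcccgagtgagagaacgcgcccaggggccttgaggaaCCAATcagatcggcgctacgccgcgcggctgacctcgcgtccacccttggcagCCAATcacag

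Zfp658 measured 7.24 and 7.5 units in plasma cells, 9.0, 8.70 and 8.86 in plasmablasts and 6.22 and 6.13 in naive B cells. Its human counterpart ZNF658 regulates genes of zinc balance. Plasmablasts were the highest on every array and both naive arrays were below background, so the rise was at least 5.01-fold in plasmablasts and at least 1.79-fold in plasma cells (adjusted p = 4.3e-07 and 8.12e-05). Plasma cells lay 2.80-fold below plasmablasts (-1.48 units, adjusted p = 1.46e-05).

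Zfp473, whose human counterpart takes part in the 3′ processing of histone mRNA with the U7 ribonucleoprotein, was above background in plasmablasts alone. It met the background rule through those arrays, so its plasmablast differences had to appear and their p-values add no evidence for them. It read 5.78 and 5.65 units in plasma cells, 7.55, 7.06 and 7.59 in plasmablasts and 4.96 and 5.01 in naive B cells. Plasmablasts were at least 1.83-fold above naive B cells (adjusted p = 3.25e-06), and plasma cells were at least 2.18-fold below plasmablasts (adjusted p = 3.33e-05). The 5 measured proliferation markers moved with it. Their summed linear signal was 3937 to 4964 on the plasma cell arrays, 15700 to 17230 on the plasmablast arrays and 1085 to 1141 on the naive arrays, and their part in the Zfp473 difference was not tested.

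Zfp280b was above background on every array, at 8.76 and 8.66 units in plasma cells, 9.75, 9.68 and 9.79 in plasmablasts and 7.73 and 7.65 in naive B cells. The 3 populations were clear of each other. It rose 4.14-fold in plasmablasts (2.05 units, interval 1.85 to 2.25, adjusted p = 2.89e-07) and 2.03-fold in plasma cells (1.02 units, adjusted p = 2.63e-05) over naive B cells. Zfp428, Zfp64 and Zfp119a rose 2.83-fold, 2.79-fold and 2.77-fold in plasmablasts over naive B cells (adjusted p = 7.38e-06, 2.2e-06 and 2.51e-06). In human leukaemia cells ZFP64 activates the MLL gene promoter. All 3 were lower in plasma cells than in plasmablasts, by 1.39, 0.91 and 0.86 units (adjusted p = 1.55e-05, 4.44e-05 and 6.91e-05).

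Plasmablasts were also the highest population for Zfp810 and Zfp667. Zfp810 gave 7.70 and 7.96 units in plasma cells, 9.11, 8.86 and 9.19 in plasmablasts and 7.86 and 7.8 in naive B cells. Plasma cells were 2.34-fold below plasmablasts for Zfp810 (adjusted p = 5.39e-05), and the difference from naive B cells was near 0, with an interval of -0.32 to 0.32 units. Zfp667 was below background on both plasma cell arrays and at least 2.14-fold lower there than in plasmablasts (adjusted p = 2.98e-05).

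The Zfp genes that rose in plasma cells were few. Zfp710 gave 11.71 and 11.86 units in plasma cells, 10.05, 10.08 and 9.95 in plasmablasts and 10.04 and 10.18 in naive B cells. Plasma cells stood apart, while plasmablasts and naive B cells overlapped. Zfp710 was 3.20-fold higher in plasma cells than in naive B cells (1.68 units, interval 1.44 to 1.92, adjusted p = 2.83e-06) and 3.38-fold higher than in plasmablasts (1.76 units, 1.54 to 1.97, adjusted p = 1.51e-06).

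Zfp467, which in mouse promotes adipocyte formation and aids Stat3 activity, read 8.36 and 8.70 units in plasma cells, 6.43, 6.23 and 6.36 in plasmablasts and 6.91 and 6.83 in naive B cells. Plasma cells were highest, and no plasmablast array was above background. Zfp467 was 3.17-fold above naive B cells (adjusted p = 1.19e-05) and at least 3.64-fold above plasmablasts (adjusted p = 1.75e-06) in plasma cells. Zfp524, whose human counterpart binds telomeres, gave 9.63 and 9.82 units in plasma cells, 8.17, 8.35 and 8.05 in plasmablasts and 9.18 and 9.21 in naive B cells. It was 2.89-fold higher in plasma cells than in plasmablasts (1.53 units, adjusted p = 7.8e-06) and 1.44-fold higher than in naive B cells (adjusted p = 0.00494).

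Zfp770 was 2.23-fold higher in plasma cells than in naive B cells and 2.16-fold higher than in plasmablasts (adjusted p = 0.00122 and 0.000863). Zfp52 was at least 2.10-fold and Zfp738 2.59-fold higher in plasma cells than in naive B cells (adjusted p = 6.87e-05 and 0.000109), with 0 of 2 and 1 of 2 naive arrays above background. These genes differed from Zfp710 in that plasmablasts were also above naive B cells, by at least 1.18-fold for Zfp52 and 2.05-fold for Zfp738 (adjusted p = 0.00226 and 0.000293). By fitted difference the 6 largest rises in plasma cells over plasmablasts were those of Zfp467, Zfp385a, Zfp710, Zfp608, Zfp524 and Zfp90. Those of Zfp385a and Zfp90 are known only as at least 1.5-fold and 1.19-fold, below the measured rise of Zfp770. Zfp467, Zfp710 and Zfp524 had their highest mean in plasma cells, and Zfp608 and Zfp90 had theirs in naive B cells. The myeloid markers given above were also lowest on the plasmablast arrays, and their part in these 6 rises was not tested.

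**Figure D3:**
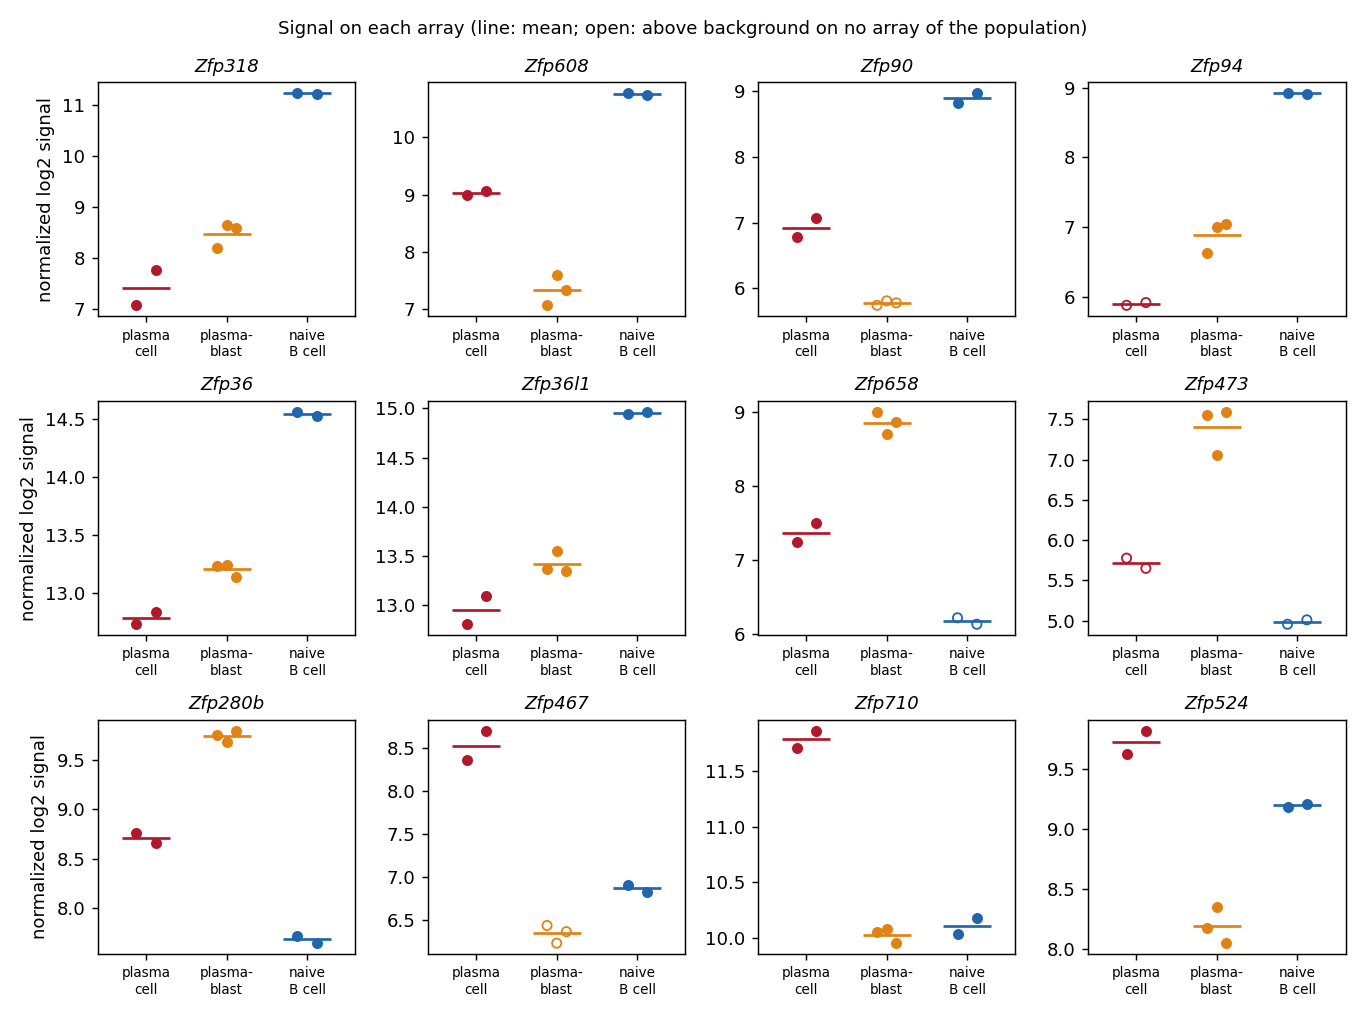
Normalized log2 signal (vertical axis, with a range of its own in each panel) of 12 Zfp genes on each array, with a line at each population's mean and open points where no array of the population was above background. Zfp318, Zfp36 and Zfp36l1 step down from naive B cells to plasma cells, Zfp608 and Zfp90 are lowest in plasmablasts, Zfp658, Zfp473 and Zfp280b peak in plasmablasts, and Zfp710, Zfp467 and Zfp524 are highest in plasma cells.

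Of the CCCH group, Zfp36 (tristetraprolin) and Zfp36l1 were measured, and no probe bears the name Zfp36l2. Both genes bind AU-rich mRNA and start its decay, and Zfp36l1 is known in mouse from early B cell development. Their 250 bases before the start of transcription are shown because these 2 relatives moved together. Each is from RefSeq on GRCm38.p6, at chr7:28379229-28379478 (- strand) for Zfp36 and chr12:80113014-80113263 (- strand) for Zfp36l1. Capitals mark a CArG box, the site of serum response factor, in Zfp36 and CCAAT on the opposite strand in Zfp36l1.
Zfp36: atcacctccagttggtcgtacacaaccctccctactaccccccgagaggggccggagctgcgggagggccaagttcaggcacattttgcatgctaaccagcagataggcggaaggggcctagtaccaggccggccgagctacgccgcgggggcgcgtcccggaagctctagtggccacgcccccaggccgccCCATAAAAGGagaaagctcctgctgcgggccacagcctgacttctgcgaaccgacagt
Zfp36l1: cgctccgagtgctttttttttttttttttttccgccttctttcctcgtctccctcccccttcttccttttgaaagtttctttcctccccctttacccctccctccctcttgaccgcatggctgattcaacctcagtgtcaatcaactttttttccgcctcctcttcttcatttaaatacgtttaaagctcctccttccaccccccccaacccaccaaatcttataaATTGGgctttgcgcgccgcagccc

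Zfp36 gave 12.73 and 12.83 units in plasma cells, 13.23, 13.24 and 13.14 in plasmablasts and 14.56 and 14.53 in naive B cells. Zfp36l1 gave 12.80 and 13.09 units in plasma cells, 13.36, 13.55 and 13.34 in plasmablasts and 14.94 and 14.96 in naive B cells. In both genes naive B cells were the highest and plasma cells the lowest, with no overlap. Against naive B cells Zfp36 fell 3.40-fold in plasma cells (-1.77 units, interval -1.98 to -1.55, adjusted p = 1.11e-06) and 2.54-fold in plasmablasts (-1.34, -1.54 to -1.15, adjusted p = 2.29e-06). Zfp36l1 fell 4.01-fold in plasma cells (-2.0, -2.29 to -1.71, adjusted p = 3.05e-06) and 2.90-fold in plasmablasts (-1.54, -1.80 to -1.27, adjusted p = 6.38e-06).

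The step between the 2 LPS populations was smaller. Plasma cells were 0.42 units below plasmablasts for Zfp36 (adjusted p = 0.00205) and 0.47 below for Zfp36l1 (adjusted p = 0.00612). With cyclic loess scaling these differences no longer passed the test, at -0.15 and -0.21 units (adjusted p = 0.14 and 0.145). Of 11 measured CCR4-NOT and decay partners, 0 rose and 9 fell in plasma cells against naive B cells, 2 rose and 4 fell in plasmablasts against naive B cells, and 1 rose and 6 fell in plasma cells against plasmablasts. Of all genes, 33.3% were called higher and 37.8% lower in the first comparison, 35.3% and 37.8% in the second, near the partners' share of falls there, and 28.7% and 46.0% in the last. The 2 plasmablast rises became 0 without the first naive array and 1 without the second naive array, the second plasmablast array or the third. Btg1, which activates the deadenylase, moved most and was 2.30 units lower in plasma cells and 2.68 lower in plasmablasts than in naive B cells (adjusted p = 7.75e-07 and 1.96e-07).

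The list of Zfp genes drawn up for lymphoid and blood cells held 11 genes, of which 7 were measured. The roles given below for its members Zfp296 and Zfp219 come from other cells. In plasma cells against naive B cells 1 rose and 6 fell, in plasmablasts against naive B cells 2 rose and 2 fell, and in plasma cells against plasmablasts 1 rose and 4 fell. The plasmablast counts lie near the 35.3% of all genes called higher and 37.8% called lower there, and the other comparisons had 33.3% and 37.8%, and 28.7% and 46.0%. Besides Zfp318 and Zfp608, Zfp335, which mouse T cells need to mature, was 0.61 units lower in plasma cells than in naive B cells (adjusted p = 0.0184). That call was lost without the first plasma cell array (-0.45 units, adjusted p = 0.114), without either naive array (adjusted p = 0.0688 and 0.0657) and with cyclic loess (adjusted p = 0.112). Zfp91, a ubiquitin ligase of the non-canonical NF-kB kinase NIK, was 0.39 units lower in plasma cells than in naive B cells (adjusted p = 0.00864) and 0.56 lower than in plasmablasts (adjusted p = 0.000755). The Zfp91 fall against naive B cells was -0.28 units without the first naive array (adjusted p = 0.0604) and -0.23 with cyclic loess (adjusted p = 0.0751). Zfp292 was 0.56 units lower in plasma cells than in naive B cells (adjusted p = 0.00087). These falls are below the 2-fold mark.

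Zfp296, which in mouse stem cells works with Klf4, had its highest mean in plasmablasts. Its brighter probe gave 8.68 and 8.64 units in plasma cells, 9.52, 9.37 and 9.51 in plasmablasts and 9.03 and 9.18 in naive B cells. On this probe the populations did not overlap, and plasma cells were 0.81 units below plasmablasts (adjusted p = 9.05e-05). The rise of 0.36 units in plasmablasts over naive B cells (adjusted p = 0.0076) was 0.29 without the first naive array (adjusted p = 0.0654). The second Zfp296 probe gave 0.24 units there (adjusted p = 0.177 among all probes), and its naive arrays overlapped its plasmablast arrays. Zfp219, a partner of Sox9 in mouse cartilage, was the only 1 of the 7 that was higher in both LPS populations than in naive B cells, by 0.38 units in plasma cells and 0.50 in plasmablasts (adjusted p = 0.0135 and 0.00221). The plasma cell rise of Zfp219 was not called without the first plasma cell array (0.30 units, adjusted p = 0.0726) or without the first naive array (0.29, adjusted p = 0.0894).

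Of 7 genes listed for cell cycle and genome stability, 3 were measured. Zfp207 (BuGZ), which loads the checkpoint protein Bub3 on kinetochores, rose by 0.60 units in plasma cells and 0.56 in plasmablasts over naive B cells (adjusted p = 0.000744 and 0.000596). It did not pass the test between the LPS populations (0.04 units, interval -0.16 to 0.25). Zfp367 gave 7.70 and 7.66 units in plasma cells, 8.73, 8.71 and 8.65 in plasmablasts and 8.09 and 7.99 in naive B cells, so that plasmablasts were highest and plasma cells lowest. It was 2.02-fold lower in plasma cells than in plasmablasts (adjusted p = 1.4e-05). Zfp277, which in mouse keeps Polycomb at the Cdkn2a locus, fell by 0.43 units in plasmablasts against naive B cells (adjusted p = 0.00185).

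Of 12 genes listed for RNA, ribosomes and translation, 8 were measured. In plasma cells against naive B cells 0 rose and 4 fell, in plasmablasts against naive B cells 1 rose and 4 fell, and in plasma cells against plasmablasts 1 rose and 2 fell. These counts rest on the brightest probe of each gene. Another probe of Zfp106 and of Zfp326 was called higher in both comparisons with naive B cells. Falls in 4 of 8 genes stand beside 37.8% of all genes called lower in each comparison with naive B cells. Of all genes, 33.3% were called higher in plasma cells and 35.3% in plasmablasts against naive B cells. Between plasma cells and plasmablasts 28.7% were called higher and 46.0% lower. Zfp593, whose yeast counterpart helps export the large ribosomal subunit, fell by 0.95 units in plasma cells and 0.80 in plasmablasts against naive B cells (adjusted p = 0.00237 and 0.00358). Only 1 of 2 plasma cell arrays and 1 of 3 plasmablast arrays were above background for Zfp593, so these sizes are uncertain. Zfp346, which binds double-stranded RNA, fell by 0.89 and 0.71 units in the same comparisons (adjusted p = 0.000254 and 0.000485). Zfp598, the ubiquitin ligase of collided ribosomes, fell by 0.51 units in plasma cells (adjusted p = 0.00741) and by 0.30 in plasmablasts, where the call (adjusted p = 0.049) was lost in 13 of 17 other settings, 6 of them with 1 array left out, the lowest value being -0.11 units without the second naive array (adjusted p = 0.398). With cyclic loess the plasma cell value of Zfp598 was -0.31 units (adjusted p = 0.0717). Zfp106 and Zfp638 were called in no comparison on their brightest probes. Another Zfp106 probe was 0.40 units higher in plasma cells and 0.49 higher in plasmablasts than in naive B cells (adjusted p = 0.0412 and 0.0122 among all probes).

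On the brightest probes, the rise in plasmablasts was that of the nucleolar protein gene Zfp330. It gave 11.51 and 11.51 units in plasma cells, 12.34, 12.23 and 12.28 in plasmablasts and 11.53 and 11.58 in naive B cells. The difference of plasma cells from naive B cells did not pass the test on the brighter probe (-0.04 units, interval -0.24 to 0.16) and was called on the other (-0.31 units, adjusted p = 0.0449 among all probes), and plasmablasts were 0.73 units above naive B cells (adjusted p = 6.33e-05). Zfp385a, an RNA-binding protein found in blood cell precursors, read 7.27 and 7.24 units in plasma cells, 5.11, 5.37 and 5.21 in plasmablasts and 6.96 and 7.29 in naive B cells. Plasmablasts were below background on all 3 arrays, at least 1.37-fold below naive B cells (adjusted p = 2.93e-06), and plasma cells were at least 1.5-fold above them (adjusted p = 2.95e-06). Plasma cells and naive B cells overlapped for Zfp385a.

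Zfp326, part of the DBIRD complex that couples transcription to splicing, gave probes that disagree. Its brightest probe fell by 0.74 units in plasma cells against naive B cells (adjusted p = 0.000904 among all probes), while another rose by 1.52 units (adjusted p = 8.14e-05). In plasmablasts against naive B cells the brightest probe gave -0.15 units (adjusted p = 0.279), and another rose by 1.84 units (adjusted p = 1.23e-05). Zfp326 was the only 1 of 26 genes with several measured probes whose probes were called in opposite directions in any comparison. The 26 genes had 57 probes. All probes of a gene gave the same call for 21 genes in plasma cells against naive B cells, 20 in plasmablasts against naive B cells and 16 in plasma cells against plasmablasts.

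Of 12 genes listed as promoter-binding activators and repressors, 7 were measured. In plasma cells against naive B cells 1 rose and 4 fell, in plasmablasts against naive B cells 3 rose and 1 fell, and in plasma cells against plasmablasts 0 rose and 4 fell. The shares of all genes called higher and lower were 33.3% and 37.8%, 35.3% and 37.8%, and 28.7% and 46.0% in these comparisons. Of the 3 plasmablast rises, those of Zfp131 (0.33 units, adjusted p = 0.0438) and Zfp281 (0.39, adjusted p = 0.0428) were lost in 9 and 5 of 17 other settings. Both were lost without the second plasmablast array (adjusted p = 0.0793 and 0.0983), the third (adjusted p = 0.103 and 0.1) or the first naive array (adjusted p = 0.157 and 0.308), which leaves 1 rise, that of Zfp280c. Zfp281 and Zfp148 are related factors that bind the same GC-rich sequences. Zfp281 read 8.63 and 8.96 units in plasma cells, 8.36, 8.56 and 8.59 in plasmablasts and 7.94 and 8.30 in naive B cells, and plasma cells were 0.67 units above naive B cells (adjusted p = 0.00575). Zfp148 read 6.91 and 7.42 units in plasma cells, 8.0, 7.92 and 7.94 in plasmablasts and 8.15 and 7.98 in naive B cells, and plasma cells were 0.90 units below naive B cells (adjusted p = 0.00132). Both genes were called, with opposite signs, and in each the plasma cell arrays did not overlap the naive arrays.

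Zfp410, an activator of the remodeller gene Chd4 in human and mouse cells, was 0.65 units lower in plasma cells than in naive B cells and 0.59 lower than in plasmablasts (adjusted p = 0.000196 and 2e-04). Its other probes gave -0.21 and -0.47 units against naive B cells, neither called (adjusted p = 0.112 and 0.0769 among all probes). Against plasmablasts its probes gave -0.59 to -0.43 units, and not all of them were called. Zfp691 was lower by 0.67 and 0.78 units in the same comparisons (adjusted p = 0.000665 and 0.000163). Neither passed the test between plasmablasts and naive B cells, with intervals of -0.24 to 0.11 and -0.12 to 0.33 units. The X-linked Zfp280c was 2.00-fold lower in plasma cells than in plasmablasts (adjusted p = 0.000269) and 1.85-fold higher in plasmablasts than in naive B cells (adjusted p = 0.000498). Zfp263 was 0.43 units lower in plasma cells than in naive B cells (adjusted p = 0.0271). That call was lost in 7 of 17 other settings, among them cyclic loess (-0.23 units, adjusted p = 0.194). Zfp263 was also 0.54 units lower in plasmablasts than in naive B cells (adjusted p = 0.00567). The second Zfp131 probe was 0.50 units higher in that comparison (adjusted p = 0.00154 among all probes).

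Of 9 genes listed for imprinting and retroelement silencing, Zfp809 alone was measured. It recruits Trim28 to proviral DNA in mouse embryonic stem cells. Zfp809 gave 7.83 and 7.85 units in plasma cells, 8.09, 8.16 and 8.12 in plasmablasts and 8.33 and 8.50 in naive B cells. It was 0.58 units lower in plasma cells and 0.29 lower in plasmablasts than in naive B cells (adjusted p = 0.000795 and 0.0157). Its 0.29 unit difference between plasma cells and plasmablasts (adjusted p = 0.0168) was 0.0031 units with cyclic loess scaling (adjusted p = 0.977) and missed the threshold without the first plasma cell array (adjusted p = 0.0593). The plasmablast fall was -0.20 units without the second naive array (adjusted p = 0.124). Of the other listed genes 3 were dim and 5 had no probe of that name. Of the 3 measured genes listed as ubiquitin or SUMO ligases, Zfp91 and Zfp598 are given above, and Zfp451, a SUMO ligase in human cells, was 0.36 units lower in plasma cells than in plasmablasts (adjusted p = 0.0337). The Zfp451 call was lost with cyclic loess (-0.08 units, adjusted p = 0.592), with no filter (adjusted p = 0.0689), without the first plasma cell array (-0.23, adjusted p = 0.214) and without the second or the third plasmablast array (adjusted p = 0.0793 and 0.0799).

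Genes of the KRAB repression machinery are no members and are counted for comparison. Of 13 measured partners, 7 rose and 4 fell in plasmablasts against naive B cells, 3 rose and 6 fell in plasma cells against naive B cells, and 1 rose and 9 fell in plasma cells against plasmablasts. The shares of all genes called higher and lower were 35.3% and 37.8%, 33.3% and 37.8%, and 28.7% and 46.0% in the same order, so that the falls against naive B cells lay near them. With cyclic loess 3 partners rose in plasma cells against plasmablasts. Trim28 read 11.50 and 11.36 units in plasma cells, 12.14, 12.05 and 12 in plasmablasts and 11.93 and 11.93 in naive B cells. It was 0.63 units lower in plasma cells than in plasmablasts (adjusted p = 0.000272) and did not pass the test between plasmablasts and naive B cells (0.14 units, adjusted p = 0.194). The heterochromatin protein gene Cbx5 and the maintenance methylation factor gene Uhrf1 rose by 1.86 and 2.32 units in plasmablasts over naive B cells (adjusted p = 2.78e-07 and 4.02e-07), and Morc3 fell by 1.98 units (adjusted p = 5.33e-07). The proliferation markers given above were also highest in plasmablasts, and their part in these differences was not tested.

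**Figure D4:**
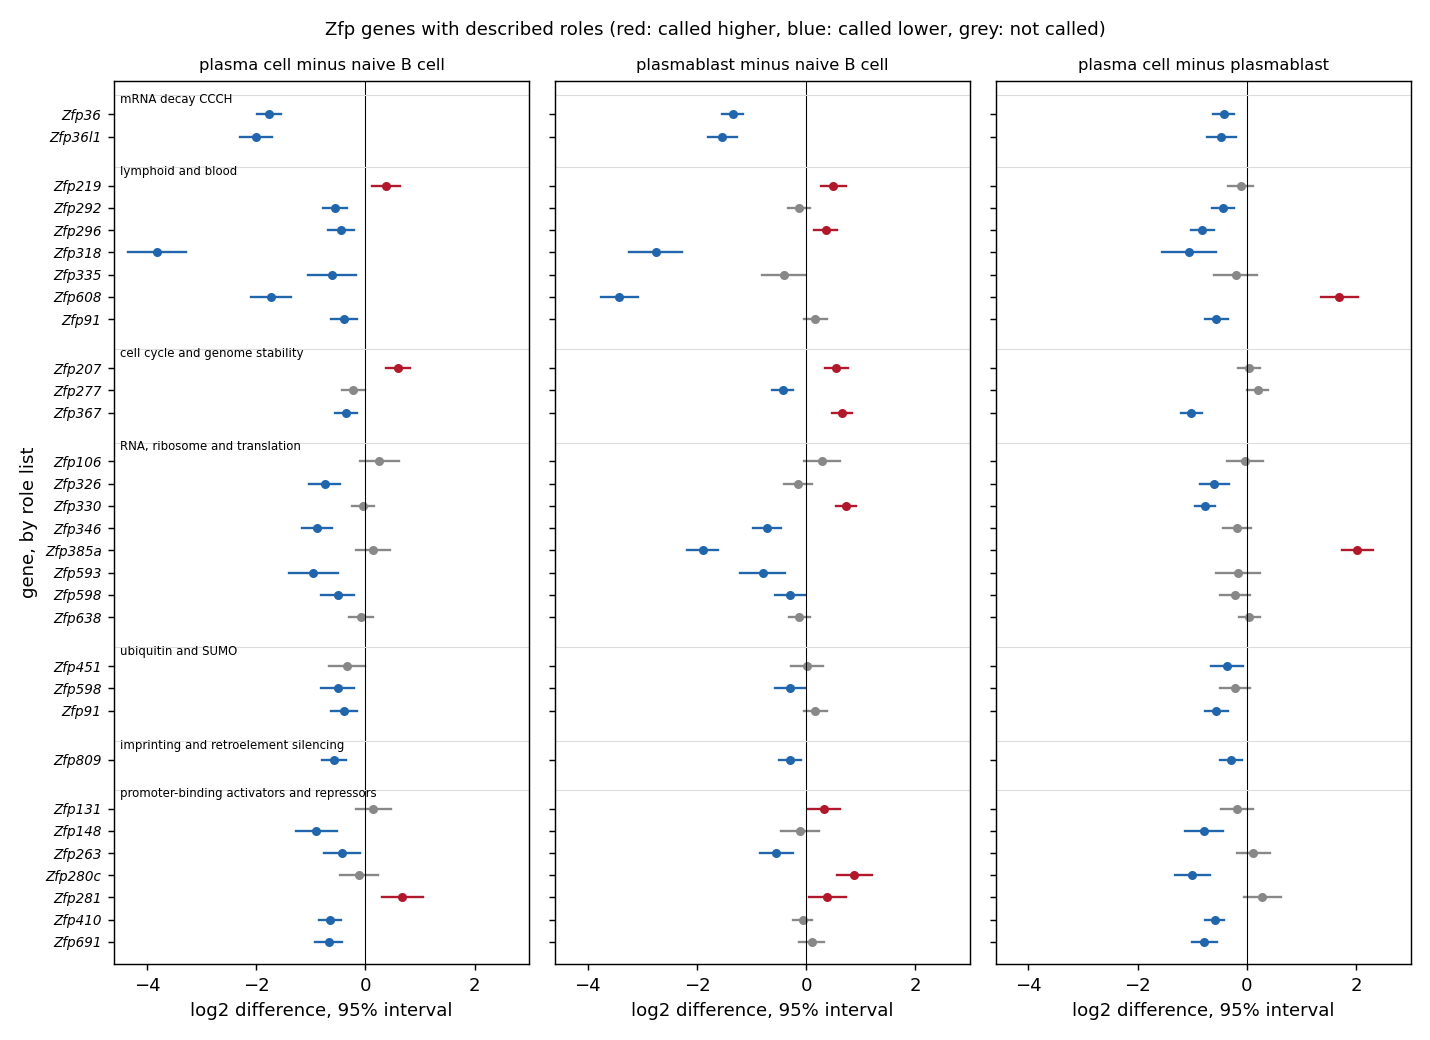
Log2 difference (horizontal axis) with its 95% interval for the measured genes of each role list in the 3 comparisons, coloured by whether limma called the gene higher (red), lower (blue) or not (grey). Zfp318 in the plasma cell panel and Zfp608 in the plasmablast panel, at -3.81 and -3.42 units against naive B cells, lie farthest from 0. Zfp91 and Zfp598 appear in more than 1 list, and Zfp385a, below background in plasmablasts, is drawn at fitted values for which only bounds are known.

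Many Zfp genes arose by duplication and sit side by side. In the RefSeq annotation of GRCm38.p6, 28 measured Zfp genes formed 12 runs of neighbouring protein-coding genes, 9 of them pairs, 2 of 3 genes and 1 of 4. In plasma cells against naive B cells 23 of the 28 fell and 2 rose, beside 37.8% and 33.3% of all genes and 68.7% and 12.2% of all measured Zfp genes, and in 8 of the 12 runs every gene fell. In plasmablasts against naive B cells 16 fell and 2 rose (37.8% and 35.3% of all genes, 46.6% and 20.6% of Zfp genes), and every gene fell in 2 runs. In plasma cells against plasmablasts 19 fell and 1 rose (46.0% and 28.7% of all genes, 58.0% and 6.87% of Zfp genes), and every gene fell in 6 runs. Of the 28, Zfp239, Zfp457 and Zfp865 met the background rule through the naive arrays alone and Zfp446 through the plasmablast arrays alone. Their falls from those populations had to appear, so the counts of genes and of runs that hold them rest partly on the rule. Zfp239 and Zfp457 were below background on every plasma cell and plasmablast array. Their falls between these populations are counted above but are not measured, and the run of Zfp457 and Zfp595 is 1 of the 6. The runs, and the genes named from them, were picked out after their values were seen. Relatives this close can share sequence, and whether a probe also catches its neighbour's transcript was not tested.

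The run of 4 holds Zfp398, Zfp282, Zfp212 and Zfp956. In plasma cells against naive B cells Zfp398 fell at least 1.57-fold (adjusted p = 0.00267), with no plasma cell array above background. Only 1 of 2 naive arrays was above background for Zfp398, so that bound is itself uncertain. The other genes fell by 0.80, 1.16 and 1.72 units (adjusted p = 0.000935, 1.84e-05 and 1.67e-05). In plasmablasts against naive B cells Zfp282, Zfp212 and Zfp956 fell by 0.35, 0.75 and 0.63 units (adjusted p = 0.0344, 0.00012 and 0.00267), and Zfp398 was -0.26 units (adjusted p = 0.277). The Zfp282 value lost its call without the second or the third plasmablast array (adjusted p = 0.089 and 0.0734) or the second naive array (-0.25 units, adjusted p = 0.205). The neighbours Zfp457 and Zfp595 fell at least 2.34-fold and 2.40-fold in plasma cells against naive B cells (adjusted p = 2.64e-06 and 1.13e-05), both below background there. The run of Zfp58, Zfp87 and Zfp748 fell by 0.86, 0.81 and 0.35 units in the same comparison (adjusted p = 0.00176, 0.00102 and 0.032). The Zfp748 fall was not called without the first plasma cell array (-0.23 units, adjusted p = 0.172) or without either naive array (adjusted p = 0.108 and 0.0875).

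Adjacent genes also went apart. Zfp524 and Zfp865 are neighbours, and in plasma cells Zfp524 was 0.53 units above naive B cells (adjusted p = 0.00494) while Zfp865 was at least 2.85-fold below (adjusted p = 0.000247). The fall of Zfp865 had to appear, since it met the background rule through the naive arrays alone. The other pair with opposite calls, in both comparisons with naive B cells for this pair, was Zfp516 and Zfp236. Zfp516 was called higher in plasma cells than in naive B cells (adjusted p = 0.00806). Both plasma cell arrays were above their own background and no naive array was. No fold is given, because the plasma cell mean did not clear the background limit of the naive arrays. Zfp236 was 0.47 units lower in plasma cells than in naive B cells (adjusted p = 0.0115). The Zfp516 call was lost without the second plasma cell or the second naive array (adjusted p = 0.0518 and 0.0506), and that of Zfp236 without the first array of either population (adjusted p = 0.0545 and 0.0639). Their plasma cell and plasmablast means were close, at 0.07 and 0.10 units apart (adjusted p = 0.724 and 0.452).

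Promoter windows of 250 bases before the start of transcription were matched by symbol for 107 of the 131 genes (134 windows, some genes having several start sites). Their median count of CG dinucleotides was 14, beside 15 for all genes tested and 10 for all protein-coding genes. Of 12 motifs searched on both strands after a first look at the sequences, CCAAT was in 50% of Zfp windows, 36.0% of windows of genes tested and 35.4% of all windows. TGACGTCA, the cyclic AMP response element, was in 5.97%, 2.56% and 1.92% of these, and its shorter part TGACGT in 12.7%, 10.0% and 7.37%. GGGCGG, the GC box, was less frequent in Zfp windows than in windows of genes tested (49.3% against 57.3%, and 42.6% of all windows). The E-box CACGTG (5.97%, 8.48% and 6.63%), the ETS site CCGGAAG (14.2%, 14.4% and 8.98%) and the E2F site TTCCCGC (8.96%, 6.69% and 4.96%) completed the short motifs, with the AP-1 site TGACTCA or TGAGTCA (4.48%, 3.16% and 4.06%).

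Of the longer motifs, the NRF1 palindrome was in 3.73% of Zfp windows, 1.65% of windows of genes tested and 1.07% of all windows. The YY1 motif was in 1.49%, 0.482% and 0.254% of them, the CArG box in 1.49%, 1.15% and 1.39%, and an NF-kB site in 0% of Zfp windows against 0.685% and 0.522%. Windows of 1 gene can overlap, as in Zfp473, and related genes can share promoter sequence, so the shares are a description of letters in these windows with no test. Zfp318 had 39 CG dinucleotides in its window and none of the CCAAT, TGACGTCA or CArG letters, while Zfp36, Zfp36l1, Zfp658 and Zfp280b had 18, 10, 17 and 19.

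The detection rule set which Zfp genes could be read at all. Of the 380 Zfp probes, 205 were above background on no array, 13 on 1 array and 12 on 2. The 12 probes just inside the rule reached 6.74 to 7.98 units on their brightest array (median 7.29), and the 13 just outside reached 6.43 to 7.04 (median 6.60). Among the 131 genes, 100 were above background on all 7 arrays. No plasma cell array was above background for 15 of them, no plasmablast array for 10 and no naive B cell array for 6.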

How the data were processed

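Per the labels' protocols, RNA was extracted with an RNeasy mini kit and the cDNA was labelled with biotin. GenomeStudio 2011.1 is named, without its role, per the submitters' processing notes. The deposited table holds a scanner intensity per probe and array, neither background-subtracted (lowest value 101.8) nor normalized, and a detection p-value, which the authors deposited beside it per the file headers. A second deposited table holds an intensity that the authors had normalized between arrays on the linear scale. It served as an alternative.

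In R 4.3.3, limma 3.58.1 (neqc, offset 16, quantile normalization) gave log2 signals from the deposited intensities and detection p-values. The platform annotation gave 1 symbol for 23978 probes, several for 0 and none for 1719. Symbols were updated by Entrez number through RefSeq (GRCm38.p6). Named probes with a detection p under 0.01 on at least 2 arrays were kept (10113), and the probe with the highest mean (a member probe where the gene has any) stood for each of 7425 genes. The model had a mean for each of the 3 populations, used all 7 arrays and was moderated with eBayes (4 residual and 3.78 prior degrees of freedom). The number of arrays limits the precision. All arrays lie on 1 slide, so no batch term was used. The method was also run on simulated data in which few genes differed, unlike these data, so that run does not bear on the calls here.

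The members and gene lists were chosen with earlier results of these data known. The genes named are the 6 largest rises and 6 largest falls per comparison by fitted difference among called genes without overlap, the measured genes of the role lists, and genes said to be picked after their values were seen. Marker lists and partner lists were counted only. Classes by protein domain, and counts of genes by domain, were not analysed here. The alternatives were 2 other normalizations, the authors' table, an offset of 50, 3 filters on dim probes, every probe on its own, an intensity trend, the replicate number as a block and leaving out each array.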

Additional observations from a re-analysis of the deposited data

How the results depend on the processing

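The counts of Zfp genes called were within 1.5 times their main values under all 17 alternatives, and 4 directional counts moved further. With cyclic loess, plasma cells against plasmablasts gave 22 higher and 48 lower in place of 9 and 76, and the median of all genes moved to -0.01 units in place of -0.22. With all 7 arrays required above background, which tests 100 Zfp genes, 10 were higher in plasma cells than in naive B cells in place of 16. Without the first plasma cell array, 14 were higher in plasma cells than in plasmablasts. With cyclic loess 77.4% of the genes called between plasma cells and naive B cells were lower, against 84.9%. The cause of the loess and left-out array changes was not tested. Leaving out each array in turn gave 87 to 106 called, 15 to 16 higher and 72 to 90 lower for plasma cells against naive B cells. The ranges were 71 to 87, 22 to 28 and 46 to 60 for plasmablasts against naive B cells, and 78 to 83, 8 to 14 and 64 to 74 for plasma cells against plasmablasts. Where only 1 array of a population was left, it was assumed to vary like the others.

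With the replicate number as a block, 108 Zfp genes were called in plasma cells against naive B cells (106 without it), 87 in plasmablasts against naive B cells (88) and 86 in plasma cells against plasmablasts (85). The deviations of same-numbered arrays correlated between -0.0316 and 0.168, and the labels name no shared animal or day, so the numbers were not taken to pair the samples.

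For the 63 named genes and 3 comparisons, 3129 values were recomputed. Of these, 2994 kept direction and side of the threshold, 92 lost a call, 41 gained one and 2 changed sign. The sign changes were Zfp873, -0.32 units in plasma cells against plasmablasts with 75th percentile scaling in place of 0.02, and Zfp809, 0.0031 with cyclic loess in place of -0.29. Without any filter on dim probes, 16593 genes were tested and 33.2 to 35.0% were called. Genes at background have only bounds, and groups of 2 or 3 arrays limit what can be called.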
